A study of Rattus norvegicus with 8 samples.

Results

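The core clock loop genes of the rat hippocampus were followed after an infusion of corticosterone. They are the 10 genes Arntl, Clock, Npas2, Per1, Per2, Per3, Cry1, Cry2, Nr1d1 and Nr1d2, taken by exact gene symbol from the 13272 symbols of the authors' table. All 10 were found, on 12 of its 16266 rows. Each row is 1 transcript in the rn6 assembly, and Clock and Nr1d1 have 2 rows each.

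RNAseq had been carried out on whole hippocampi of 8 adrenalectomized (ADX) rats. The 4 vehicle rats received 0.45% saline and the 4 CORT rats received corticosterone-2-hydroxypropyl-β-cyclodextrin at 0.75 mg/mL, in each case for 30 min from zeitgeber time (ZT) 2, into the jugular vein, and the series title places collection 2 h after treatment. Both groups had lost their adrenal glands, the source of corticosterone. Per the methods they had been kept on corticosterone in the drinking water, which was replaced with saline before the experiment for washout. The vehicle group is therefore meant to stand for rats without circulating corticosterone and not for intact rats. No measured corticosterone level of these rats is given in the sources used here. The labels name Sprague-Dawley rats of 3 to 4 months, whereas the methods name male Lister hooded rats, and the difference could not be resolved. The table gives 1 FPKM value per group (fragments scaled to transcript length and to sequencing depth), with no value for a single rat. No spread between rats could therefore be given and no test between groups was run, so every difference below is one between 2 group values. The number of reads in each library is not in the table, and the precision of a single value is unknown. In place of a test, a gene was counted as higher or lower when its group values were at least 1.5-fold apart, and a second count used 1.2-fold. Levels are FPKM, and differences are log2 ratios of CORT over vehicle without a pseudocount.

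The mammalian clock is a transcriptional feedback loop. BMAL1, encoded by Arntl, pairs with CLOCK or with its paralogue NPAS2, and the dimer binds E-box elements to switch on the Per and Cry genes, whose proteins return to the nucleus and block that same dimer. In a second loop the REV-ERB receptors, encoded by Nr1d1 and Nr1d2, repress Arntl while the ROR receptors activate it. Outside the suprachiasmatic nucleus these loops also run in hippocampal cells, which carry the glucocorticoid receptor, and Per1 is an established target of that receptor.

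Of the 10 genes, Per1 stood apart, with a 1.935-fold higher FPKM in the CORT group. Per2 was next, about 29.2% above vehicle. The other 8 genes lay between log2 ratios of -0.080 and 0.12, on both sides of 0. At the 1.5-fold threshold 1 of 10 genes was higher and 0 were lower, beside 4.21% of all rows higher and 4.91% lower. At 1.2-fold 2 of 10 were higher and 0 lower, beside 12.3% of all rows higher and 13.3% lower. Each gene is counted on its row with the highest mean, whereas the percentages take in every transcript row. Counted by row, 1 of 12 was higher and 1 lower at 1.5-fold, and 2 were higher and 1 lower at 1.2-fold. These counts of 1 and 2 genes are small, and the share of the list past a threshold is read only against those percentages. The median log2 ratio of the 10 genes was -0.0015, and that of all rows was 0.022. The 2 genes past a threshold were both Per genes.

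**Figure D1:**
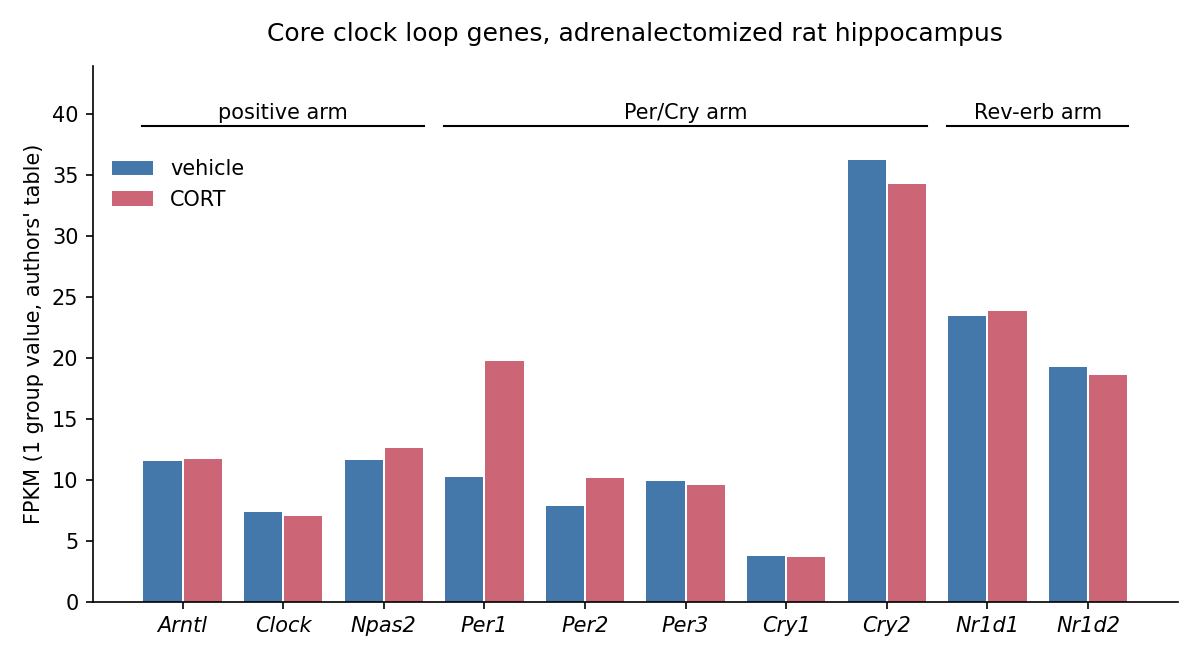
FPKM of the 10 core clock loop genes (vertical axis) in the vehicle group (blue) and the CORT group (red), 1 group value per bar from the authors' table and no error bars because no value per rat was used. For Clock and Nr1d1 the row with the higher mean is drawn. Per1 goes from 10.2 to 19.75 FPKM and Per2 from 7.85 to 10.1 FPKM, while the bars of the other genes are close to equal.

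The Per genes encode the inhibitory subunits that accumulate each day and set the period of the loop. Per1 lies on chromosome 10 of rn6 (55687049 to 55695994) and has a single row. Its level was 10.2 FPKM without and 19.75 FPKM with CORT (log2 ratio 0.95). This ratio was above that of 97.95% of all rows. Among the 10371 rows with at least 5 FPKM in both groups, a limit chosen after seeing the data, 56 had a larger ratio. Per2, on chromosome 9 (98555168 to 98597359), was at 7.85 FPKM in vehicle rats and 10.1 FPKM in CORT rats (log2 ratio 0.37). In that same set of rows 307 had a larger ratio than Per2, whose ratio was above that of 92.09% of all rows. It lay between the 2 thresholds, above 1.2-fold and below 1.5-fold. Per3, on chromosome 5 (168086997 to 168123395), was at 9.93 FPKM in vehicle rats and 9.56 FPKM in CORT rats (log2 ratio -0.054). The paralogues were thus ordered Per1, Per2, Per3 by ratio, with Per1 and Per2 above 0 and Per3 below it.

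The makeup of the Per pool differed between the groups. The summed FPKM of the 3 genes was 28.0 with vehicle and 39.4 with CORT, and 9.54 FPKM of the 11.5 FPKM between them was the difference in Per1. Per1 and Per3 were almost level in the vehicle group, with a Per1 over Per3 ratio of 1.03, and in the CORT group that ratio was 2.07. The share of Per1 in the summed FPKM was 36.5% with vehicle and 50.1% with CORT. Per3 held 35.5% with vehicle and 24.2% with CORT, and the share of Per2 was 28.0% and 25.7%.

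The windows around the start sites of the Per genes are shown because these 3 paralogues differed most from each other in their ratio of CORT over vehicle. In level the Cry pair lay further apart. A window runs from 250 bases before to 50 bases after the start in RefSeq's GRCr8 annotation, a later assembly than the rn6 of the table. Capitals mark matches on either strand to an E-box (CACGTG), its variant CACGTT, a D-box (TTANGTAA), a ROR element (TAGGTCA), a cAMP response element (TGACGTCA) or the core of the latter (TGACG).
Per1, chr10:54304126-54304425, strand +: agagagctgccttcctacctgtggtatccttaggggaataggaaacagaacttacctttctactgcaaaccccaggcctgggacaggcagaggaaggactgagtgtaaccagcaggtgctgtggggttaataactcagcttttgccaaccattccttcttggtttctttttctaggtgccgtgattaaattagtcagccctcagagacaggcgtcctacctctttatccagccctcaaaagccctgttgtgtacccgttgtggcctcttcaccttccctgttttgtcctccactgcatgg
Per2, chr9:99496944-99497243, strand -: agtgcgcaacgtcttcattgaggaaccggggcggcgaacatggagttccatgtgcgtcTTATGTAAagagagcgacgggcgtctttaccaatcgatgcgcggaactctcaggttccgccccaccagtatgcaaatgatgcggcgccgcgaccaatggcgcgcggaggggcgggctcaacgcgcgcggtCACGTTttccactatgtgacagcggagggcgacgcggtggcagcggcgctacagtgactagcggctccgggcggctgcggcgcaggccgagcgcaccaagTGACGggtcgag
Per3, chr5:166777751-166778050, strand -: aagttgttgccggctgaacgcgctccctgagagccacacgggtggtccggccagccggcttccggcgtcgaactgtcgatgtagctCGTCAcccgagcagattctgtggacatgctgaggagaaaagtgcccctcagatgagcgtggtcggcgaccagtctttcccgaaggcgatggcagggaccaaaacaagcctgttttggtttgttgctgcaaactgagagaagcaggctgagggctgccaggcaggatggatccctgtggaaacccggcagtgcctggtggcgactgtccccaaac
The window of Per1 held none of these motifs. That of Per2 held the E-box variant at positions -62 to -57 (counted from the start site, with negative positions before it), a D-box at -192 to -185, and the cAMP response element core at 39 to 43. Per3 held the same core at -164 to -160. Of 33469 windows in the table, 4.83% held CACGTT, 2.24% the D-box and 21.2% the core, which also occurs inside the full cAMP response element. A glucocorticoid response element, searched as AGAACA and TGTTCT with 3 bases between them, was in 0.0149% of windows and in none of those of the 7 matched core clock loop genes. A looser form, ACA and TGT with 3 bases between them, with a G 2 bases before ACA and a C 2 bases after TGT, was in 0.439% of windows and again in none of the 7. The missing matches concern only these letters in these windows. In the Per1 window 50.3% of the bases were G or C, the lowest share of the 7, and the median over all windows was 51.7%. Whether the start annotated for Per1 is the one used in hippocampus was not examined. In other rats of the study, the paper reported binding of the glucocorticoid receptor at a distal glucocorticoid response element of Per1. Its place relative to the Per1 window was not examined. The windows of Cry1, Clock and Nr1d1 were not matched.

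The cryptochromes Cry1 and Cry2 encode the partners of the PER proteins and the stronger repressors of the BMAL1 dimer. Cry2 was the most abundant member of the loop and Cry1 the least abundant, in both groups. Cry2, on chromosome 3 (81314148 to 81344110), was at 36.2 FPKM in vehicle rats and 34.25 FPKM in CORT rats, the lowest log2 ratio of the 10 genes when the higher row of each is used (-0.080). Cry1, on chromosome 7 (24534614 to 24634097), was at 3.78 FPKM in vehicle rats and 3.72 FPKM in CORT rats (log2 ratio -0.025). Cry2 thus exceeded Cry1 by 9.57-fold in the vehicle group and 9.21-fold in the CORT group, and supplied 90.5% and 90.2% of the pair's FPKM. The window of Cry2 held the E-box variant, read on the other strand, at -212 to -207, and that of Nr1d2 held the cAMP response element core at 39 to 43.

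Summed over its 5 genes, the Per/Cry arm was at 68.0 FPKM in vehicle rats and 77.4 FPKM in CORT rats, 13.9% more. Its median log2 ratio was -0.025, because 3 of the 5 genes lay slightly below 0. The higher sum therefore came from Per1 and Per2, while the sum of the Cry pair differed by -5.05%.

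The positive arm supplies the activating dimer. Arntl, on chromosome 1 (178039062 to 178137465), was at 11.6 FPKM in vehicle rats and 11.75 FPKM in CORT rats (log2 ratio 0.022). Clock, on chromosome 14 (34446615 to 34502218), was at 7.34 FPKM in vehicle rats and 7.06 FPKM in CORT rats in its main transcript (log2 ratio -0.056). Its second transcript, from the same locus, was at 1.52 FPKM and 1.63 FPKM (log2 ratio 0.10). Npas2, on chromosome 9 (45901740 to 46081880) and known as the CLOCK paralogue of the forebrain, was at 11.6 FPKM in vehicle rats and 12.65 FPKM in CORT rats (log2 ratio 0.12). Npas2 had the highest ratio after Per1 and Per2, yet it stayed below the 1.2-fold threshold. The 3 genes together summed to 30.5 FPKM in vehicle rats and 31.45 FPKM in CORT rats, 3.01% more.

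Npas2 was above Clock in both groups, 1.58-fold with vehicle and 1.79-fold with CORT. When both Clock transcripts were summed the ratio was 1.31 with vehicle and 1.46 with CORT, so the order did not depend on the choice of transcript. The window around the start of Arntl is shown because a ROR element, the site through which the ROR and REV-ERB receptors act on this gene, lay directly before the start. In capitals is that element, at -16 to -10, a motif held by 2.63% of all windows.
Arntl (listed as Bmal1), chr1:176766078-176766377, strand +: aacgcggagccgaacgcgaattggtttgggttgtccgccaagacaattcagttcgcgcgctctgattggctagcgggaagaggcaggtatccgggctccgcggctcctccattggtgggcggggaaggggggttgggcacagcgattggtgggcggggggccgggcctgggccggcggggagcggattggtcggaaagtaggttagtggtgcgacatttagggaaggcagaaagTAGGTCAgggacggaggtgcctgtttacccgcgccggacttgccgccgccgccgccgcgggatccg

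The Rev-erb genes were the most abundant members after Cry2 in the vehicle group. Nr1d1, on chromosome 10 (86657284 to 86690815), was at 23.5 FPKM in vehicle rats and 23.8 FPKM in CORT rats in its main transcript (log2 ratio 0.022). A minor Nr1d1 transcript was at 1.09 FPKM in vehicle rats and 0.597 FPKM in CORT rats, a log2 ratio of -0.87, and was the single one of the 12 rows below the 1.5-fold threshold. This row has the lowest level of the 12, and of all 2593 rows with a mean of 0.5 to 2 FPKM 17.05% were at least 1.5-fold lower. With both transcripts summed Nr1d1 was at 24.6 FPKM and 24.4 FPKM. Both rows share their deposited locus with Thra, the thyroid hormone receptor alpha gene, whose transcripts overlap those of Nr1d1 from the opposite strand. Thra was far more abundant, at 250.5 FPKM in vehicle rats and 287.9 FPKM in CORT rats in its main transcript, and since the strand setting of the quantification is not given in the sources used here, reads of the overlap may have been shared. Nr1d2, on chromosome 15 (8730870 to 8757165), was at 19.3 FPKM in vehicle rats and 18.6 FPKM in CORT rats (log2 ratio -0.051). Nr1d1 exceeded Nr1d2 1.22-fold with vehicle and 1.28-fold with CORT.

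**Figure D2:**
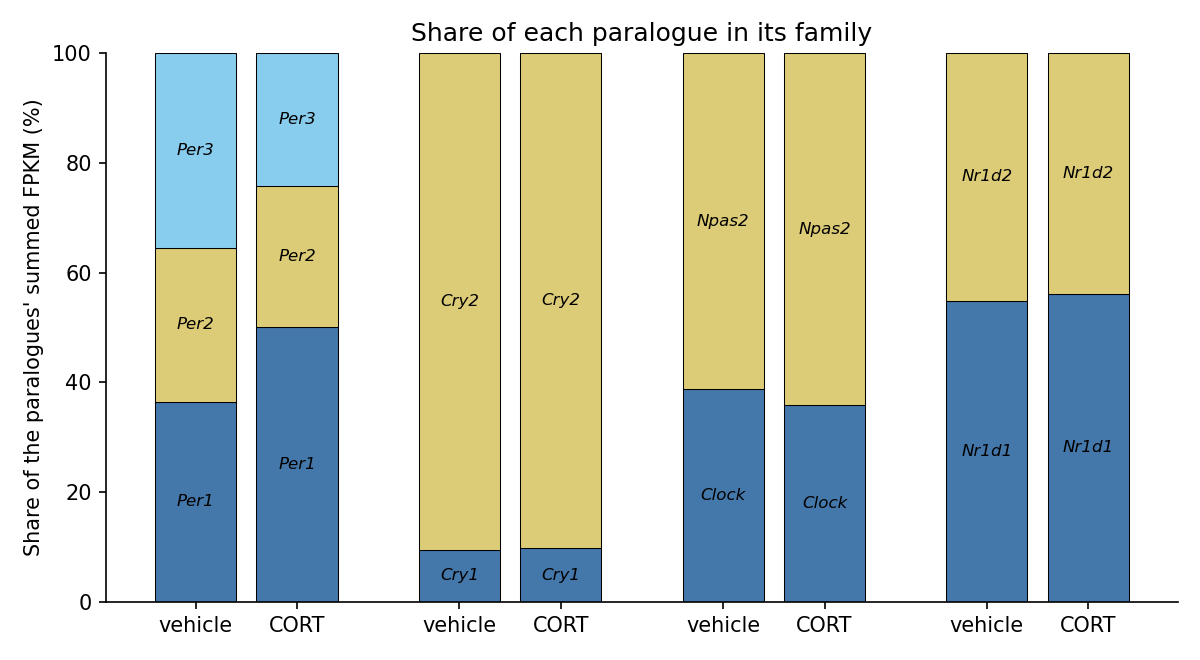
Share of each paralogue in the summed FPKM of its family (percent, vertical axis), for the vehicle and CORT groups, from 1 group value per gene and the higher row of each. The Per bars differ, with Per1 going from 36.5% to 50.1%, while Cry2 goes from 90.5% to 90.2% and Clock, Npas2, Nr1d1 and Nr1d2 move by under 3 percentage points.

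Set in order, the levels of the vehicle group were Cry2, Nr1d1, Nr1d2, Npas2, Arntl, Per1, Per3, Per2, Clock and Cry1. Several neighbours in that order were nearly level. Npas2 and Arntl were 1.00-fold apart, Per1 and Per3 1.03-fold, Per2 and Clock 1.07-fold, and Arntl and Per1 1.13-fold. Without values per rat, the order within such pairs cannot be told from the spread. With CORT, Per1 moved from rank 6 to rank 3, between Nr1d1 and Nr1d2, and stood 1.06-fold above Nr1d2. Per2 moved from rank 8 to rank 7, past Per3 (from rank 9 when the Clock transcripts are summed). The other 8 genes kept their order among themselves with the higher row of each.

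**Figure D3:**
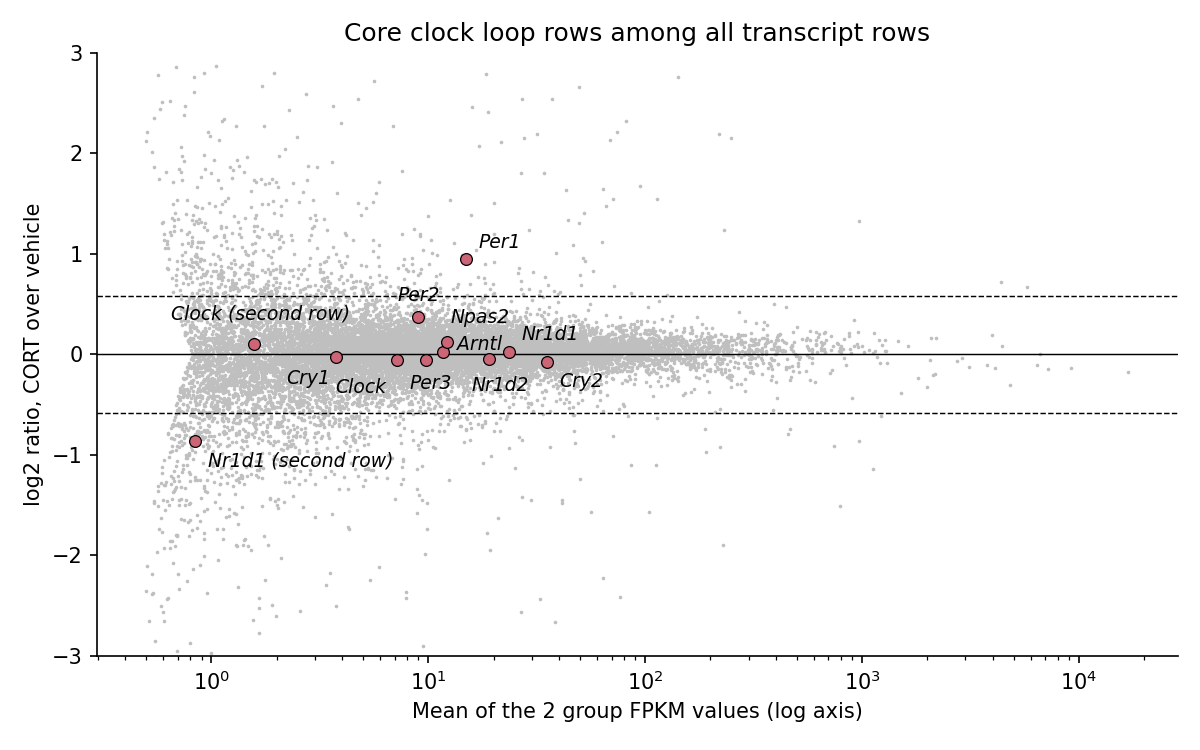
Log2 ratio of CORT over vehicle (vertical axis) against the mean of both group FPKM values (horizontal axis, log scale) for the 16257 rows with a mean of at least 0.5 FPKM in grey and the 12 core clock loop rows in red. Dashed lines mark 1.5-fold, and 71 grey rows beyond a log2 ratio of 3 in either direction are not drawn. Per1 lies above the upper line, the minor Nr1d1 row lies below the lower line in the wide low-FPKM end of the cloud, and the other rows lie between the lines.

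How far single rows scatter depends on their level. Over rows with at least 5 FPKM in both groups, the central 90% of log2 ratios ran from -0.27 to 0.30, and 8 of the 10 genes fell inside it. Per1 and Per2 were the exceptions, both above. In those rows the share at least 1.5-fold higher was 1.25% and the share at least 1.2-fold higher was 6.77%, against 4.21% and 12.3% over all rows. For rows with a mean of 7 to 20 FPKM, where Per1, Per2, Per3, Clock, Npas2, Arntl and Nr1d2 lie, the central 90% ran from -0.32 to 0.34.

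The regions around the genes were also examined, by taking every row of another symbol within 50 kb of the deposited locus. Around Per1 these were 5 genes, LOC497934, Tmem107, Vamp2, Hes7 and Aloxe3, with log2 ratios from -0.32 to 0.45, none of them 1.5-fold apart. Vamp2, a synaptic vesicle SNARE and the nearest of them, was at 461 FPKM in vehicle rats and 483 FPKM in CORT rats (log2 ratio 0.070). Hes7, on the other side, was at 0.933 FPKM and 0.941 FPKM. Aloxe3, beyond Hes7, was at 1.83 FPKM and 2.50 FPKM (log2 ratio 0.45), past 1.2-fold in the same direction as Per1, and Tmem107 was at 10.7 FPKM and 8.58 FPKM (log2 ratio -0.32), past 1.2-fold in the other. Around Per2 lay Ilkap, Hes6 and Traf3ip1, and their 5 rows had log2 ratios from -0.41 to 0.33. Beside Per3, Vamp3 had a log2 ratio of -0.23 and Camta1 one of 0.32. Rows past 1.5-fold upward were found beside Cry1 (a minor transcript of Tmem263, 0.590 FPKM in vehicle rats and 2.31 FPKM in CORT rats) and beside Arntl (a minor transcript of Btbd10, 0.802 FPKM and 2.06 FPKM). The main transcripts of Tmem263 and Btbd10 had log2 ratios of -0.054 and -0.0084. No other row lay within 50 kb of Nr1d2, and the remaining neighbors were Mterfd3 by Cry1, Phf21a, Pex16, Mapk8ip1 and Slc35c1 by Cry2, Pdcl2 and Tmem165 by Clock, Tbc1d8 and Rpl31 by Npas2, and Psmd3, Med24, Msl1 and Casc3 by Nr1d1. None of these was 1.5-fold apart.

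Other clock genes were taken from a list of 41, of which 37 had a row. The list covers the ROR arm, further E-box repressors, output factors, enzymes that modify clock proteins, the ubiquitin pathway and cofactors. At 1.5-fold 2 of the 37 were higher and 0 lower, and at 1.2-fold 4 were higher and 0 lower. Over all rows 4.21% were higher and 4.91% lower at 1.5-fold, and 12.3% and 13.3% at 1.2-fold. These shares take in every transcript row, whereas each gene is counted on its highest row, and no test was run. Over rows with at least 1 FPKM in both groups the 1.5-fold shares were 2.51% higher and 2.87% lower. With at least 5 FPKM in both groups they were 1.25% and 1.05%. Of the 2 genes past 1.5-fold, Rora was below 1 FPKM in both groups. The 1.2-fold shares were 10.38% higher and 10.65% lower over rows with at least 1 FPKM in both groups, as 36 of the 37 genes have. With at least 5 FPKM in both groups they were 6.77% and 5.255%. The median log2 ratio was 0.11, beside 0.022 over all rows and 0.031 over the rows with at least 5 FPKM in both groups.

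The PAR bZIP factors Dbp, Tef and Hlf bind D-box elements as activators, and Nfil3 binds the same elements as a repressor. Nfil3 was at 5.46 FPKM in vehicle rats and 8.33 FPKM in CORT rats (log2 ratio 0.61), past the 1.5-fold threshold. Hlf was at 13.9 FPKM and 17.8 FPKM (log2 ratio 0.35). Tef, at 91.5 FPKM and 95.2 FPKM, had a log2 ratio of 0.058. Dbp, a direct E-box target of the BMAL1 dimer, was at 44.35 FPKM and 45.7 FPKM in its main transcript (log2 ratio 0.043). Its second transcript was at 21.3 FPKM and 17.1 FPKM (log2 ratio -0.32), and with its 2 transcripts summed the log2 ratio was -0.064. The D-box repressor Nfil3 and the activator Hlf were thus both higher with CORT. Tef and the main Dbp transcript were within 5% of vehicle.

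In the ROR arm, Rora was at 0.559 FPKM in vehicle rats and 0.914 FPKM in CORT rats, a log2 ratio of 0.71 that became 0.30 when 1 FPKM was added to both values. Rorb was at 2.06 FPKM and 2.30 FPKM (log2 ratio 0.16). Of the E-box repressors, Bhlhe40 was at 23.15 FPKM and 27.35 FPKM (log2 ratio 0.24), Bhlhe41 at 11.1 FPKM and 11.95 FPKM (0.10), Ciart at 5.46 FPKM and 5.87 FPKM (0.11) and Cipc, named with its values known, at 29.2 FPKM and 28.8 FPKM (-0.020). None of these 4 reached 1.2-fold.

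The 11 kinases and phosphatases that act on clock proteins had log2 ratios from -0.069 to 0.21, and 0 of 11 reached 1.2-fold in either direction, beside 6.77% higher and 5.255% lower of the rows with at least 5 FPKM in both groups. With lists this short, a count of 0 does not set them apart from the background. Among genes picked for their role with values known, Csnk1d and Csnk1e, the casein kinases that mark PER proteins for turnover, had log2 ratios of 0.13 and -0.0021. With its 3 transcripts summed, Csnk1e had a log2 ratio of 0.16. The 6 measured genes of the ubiquitin pathway ran from -0.17 to 0.19, again with 0 past 1.2-fold. They include, picked in the same way, Btrc, a ligase subunit for PER proteins, with a log2 ratio of 0.19. Of 10 cofactors Kmt2a, a histone methyltransferase that works with CLOCK, passed 1.2-fold, at 4.50 FPKM in vehicle rats and 5.44 FPKM in CORT rats (log2 ratio 0.27).

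**Figure D4:**
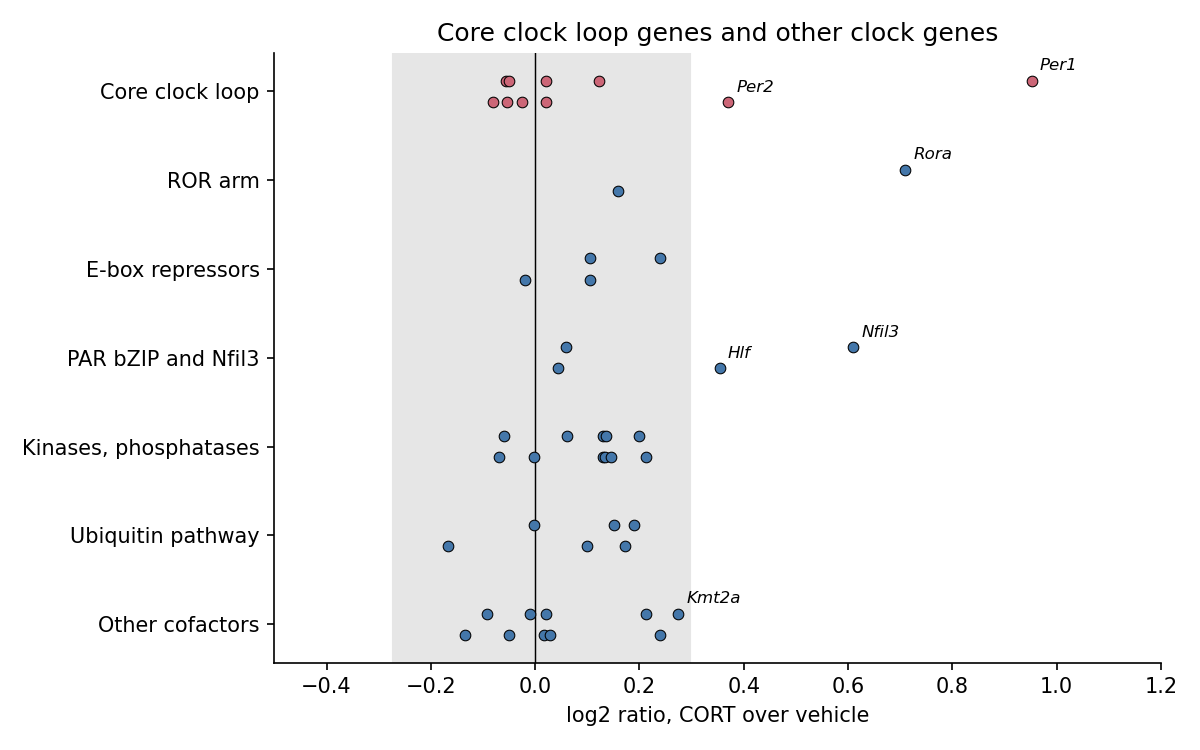
Log2 ratio of CORT over vehicle (horizontal axis) for the 10 core clock loop genes (red) and for 37 other clock genes in 6 groups (blue), 1 point per gene from its row with the higher mean. The grey band is the central 90% of rows with at least 5 FPKM in both groups (-0.27 to 0.30), and genes at least 1.2-fold apart are named. Per1, Per2, Nfil3, Hlf and Rora lie to the right of the band and no gene lies to its left, with Rora below 1 FPKM in both groups.

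Established glucocorticoid targets outside the clock were taken as a check of the group labels. The list was chosen with earlier results of these data known, so its outcome is no independent check. Over all rows, 4.21% were at least 1.5-fold higher with CORT. All 8 listed targets (Fkbp5, Tsc22d3, Sgk1, Klf9, Ddit4, Errfi1, Nfkbia and Zbtb16) were at least 1.5-fold higher with CORT, with log2 ratios from 0.60 to 1.31 and a median of 0.91. The log2 ratio of Per1, 0.95, lies within that range, and that of Per2, 0.37, lies below it. By straight-line distance on the log2 scale over the 2 group values, the genes nearest to Per1 were Nfkbia (distance 0.0998), which encodes the NF-κB inhibitor IκBα, Gpatch4 (0.196) and Arrdc2 (0.213). Nfkbia was at 9.62 FPKM in vehicle rats and 19.1 FPKM in CORT rats. Of the receptors for corticosterone, Nr3c1 (the glucocorticoid receptor) was at 23.2 FPKM and 18.3 FPKM, and Nr3c2 (the mineralocorticoid receptor) at 24.1 FPKM and 30.2 FPKM.

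Hippocampal neuron markers were present, as the tissue label has it, with Camk2a at 593 FPKM in vehicle and 667 FPKM in CORT, Slc17a7 at 736 FPKM and 794 FPKM, and a sum of 1573 FPKM and 1703 FPKM over 5 of 6 listed markers. That sum is mostly Camk2a and Slc17a7, and their fellow markers Neurod6 (128 and 119 FPKM) and Prox1 (10.9 and 8.96 FPKM) were lower with CORT, with log2 ratios of -0.097 and -0.28. Several markers of other cells and tissues differed between the groups. The summed level was 1342 FPKM in vehicle rats and 841 FPKM in CORT rats for 5 of 5 astrocyte markers, 4685 and 3888 FPKM for 5 of 5 oligodendrocyte markers, 114 and 92.3 FPKM for 5 of 5 microglial markers, 58.9 and 52.4 FPKM for 3 of 5 endothelial markers, and 33.4 and 28.5 FPKM for 3 of 5 meningeal markers. Members of a list differed in the size or the direction of their ratio. Most of the difference in the astrocyte sum was in Gfap, at 970 and 516.5 FPKM. Aqp4 and Aldh1l1 were also lower with CORT, with log2 ratios of -0.51 and -0.67, while Slc1a3 and Gja1 had log2 ratios of -0.089 and -0.099. Among the microglial markers Tmem119 was higher with CORT (5.72 and 11.15 FPKM, log2 ratio 0.96), against the sum of its list. For interneurons the sum was 381 and 473 FPKM over 5 of 5 markers, and for choroid plexus 6727 and 6719 FPKM over 5 of 5. For 4 of 5 markers of thalamus and habenula it was 15.2 and 5.76 FPKM, for 2 of 5 pineal markers 8.62 and 0.260 FPKM, and for 2 of 5 markers of the suprachiasmatic nucleus 2.16 and 1.30 FPKM. Aanat, Asmt and Crx of the pineal list and Nms, Prok2 and Lhx1 of the suprachiasmatic list had no row. The pineal, suprachiasmatic, and thalamus and habenula lists stand for tissue outside the hippocampus, and how much of it each sample held is not known. The part of tissue makeup in the values of Per1, Per2 and the other clock genes was not tested. For cell types of the hippocampus, fewer cells of a type and less RNA per cell cannot be told apart.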

How the data were processed

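Total RNA of whole hippocampi from 4 vehicle and 4 CORT rats had been sequenced by the authors with a stranded total RNA kit. Per the submitters' processing notes the tools were CASAVA 1.8.2, TopHat2 2.0.10 and Cuffdiff 2.2.0, with the rn6 genome. The authors deposited FPKM values per Ensembl transcript, 1 per group, with geometric scaling between libraries, at least 10 alignments required, and corrections applied for multi-mapped reads, sequence bias and effective length. The table also holds their fold changes, test statistics, p-values and q-values, which were not used. It holds no value per rat and no read totals, so depth, intervals and replicate tests could not be given.

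Groups were taken from the treatment label. For a symbol with several rows the row with the highest mean FPKM was used, and log2 ratios were taken without a pseudocount. The members and lists were chosen with earlier results of these data known. Named genes were the 10 members, 10 set clock genes, other clock genes at least 1.2-fold apart with at least 1 FPKM in both groups, neighbors within 50 kb, the 3 genes nearest to the member with the largest ratio, 8 glucocorticoid targets and both receptors. Some items are not reported here. A ratio was called moved under an alternative when it shifted by at least 0.1. Promoter windows came from RefSeq (GRCr8), where 7 of the 10 members were matched, Arntl through its synonym. The computation was tested on simulated data. Python 3.11.15, numpy 2.4.6, pandas 2.3.3 and matplotlib 3.10.9 were used.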

Additional observations from a re-analysis of the deposited data

How the results depend on the processing

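No paired analysis was possible because each group has a single value. Leaving out each rat and tests with edgeR or limma were not run, since the table holds 1 value per group. Under the alternatives run (pseudocounts of 1 and 0.1 FPKM, transcripts summed, centering on the median of all rows or of rows with at least 1 FPKM in both groups), none of the 10 core clock loop genes moved by 0.1 or more on the log2 scale, and the counts of 1 gene past 1.5-fold and 2 genes past 1.2-fold, with 0 lower, were kept. The centerings could not have moved a gene by 0.1, since each subtracts a constant (0.022 or 0.024) from every ratio. Summing transcripts could change only Clock and Nr1d1, which have 2 rows each. The sign of Nr1d1 turned with transcripts summed and with both centerings, and that of Arntl with both centerings, all from log2 ratios of 0.022. Of the 10 other clock genes run, Rora moved to 0.30 with 1 FPKM added and Dbp to -0.064 with transcripts summed. The share of all rows past 1.5-fold depended on level: it was 2.51% higher and 2.87% lower over rows with at least 1 FPKM in both groups, and 1.25% and 1.05% at 5 FPKM, a limit chosen after seeing the data, where 1.2-fold gave 6.77% and 5.255%.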

Other observations

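Minor transcripts of 3 genes whose products act on clock proteins differed in ways that their main transcripts did not, and were named after their values were seen. A Csnk2b transcript was at 15.1 FPKM in vehicle rats and 4.52 FPKM in CORT rats (log2 ratio -1.74), while the main Csnk2b transcript, for the regulatory subunit of casein kinase II, was at 98.4 and 108 FPKM. A Csnk1e transcript was at 1.504 and 4.36 FPKM (log2 ratio 1.54), with the main one at 22.9 FPKM in both groups. A Ppp1ca transcript was at 3.00 and 1.04 FPKM (log2 ratio -1.53), with the main one at 190 and 199 FPKM. Of the 2994 rows that are not the highest of their symbol, 14.4% were at least 1.5-fold higher and 8.99% at least 1.5-fold lower.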
